A study of Mus musculus with 28 samples.

Results

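RNA levels of 10 genes for checkpoint ligands and adhesion molecules that meet T cells or phagocytes were followed across 28 mouse RNA-seq libraries in 8 groups. The 10 genes were taken by symbol from the 55291 genes of the deposited tables: Cd274, Pdcd1lg2, Cd276, Pvr, Nectin2, Lgals9, Icam1, Vcam1, Nt5e and Cd47. LLC, a wild-type mouse lung carcinoma line, was treated in culture with BAY-876, a compound that blocks the glucose transporter GLUT1, and with the inflammatory cytokine TNF. The series asks how the inhibitor and TNF, alone and together, change LLC transcripts, and how glucose transporters compare between tumour cells and tumour-reactive T cells.

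The first culture experiment had 3 libraries of cells given vehicle and 3 of cells given 200 nM BAY-876, both collected at 36 h. The second had 4 groups of 3 libraries. Its control cells received neither agent, the BAY-876 cells were pretreated with 200 nM inhibitor over 24 h, the TNF cells received 20 ng/ml TNF over 32 h, and the last group received the inhibitor and then TNF. Whether the inhibitor remained during the 32 h is not said in the labels. The third experiment had 5 libraries of tumour cells and 5 of OT1 cells, which are CD8 T cells with a transgenic receptor for an ovalbumin peptide. Here LLC-OVA-NGFR cells grew under the skin of Rag1 knockout mice, which lack mature T and B cells but keep their myeloid and natural killer cells. Activated OT1 cells were injected on day 9, and both populations were sorted from the tumours on day 16, so every tumour cell library comes from a mouse that had received T cells. No treatment with BAY-876 or TNF is given for these mice. Nothing in the labels says whether replicates came from separate cultures or mice, so a p-value reflects only the spread among these libraries, part of which may be technical.

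Checkpoint ligands on a tumour cell bind receptors on T cells that hold back killing and cytokine release. PD-L1 and PD-L2 bind PD-1, the poliovirus receptor CD155 and nectin-2 bind the inhibitory TIGIT and the activating CD226, and galectin-9 binds TIM-3. ICAM-1 and VCAM-1 hold a T cell to its target through the integrins LFA-1 and VLA-4, CD73 makes adenosine outside the cell, and CD47 tells phagocytes not to engulf. In many cell types interferon gamma induces PD-L1 through IRF1, and TNF induces ICAM-1 and VCAM-1 through NF-kappaB.

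Levels are given as normalized counts at 36 h and as TPM, a share of all transcripts that takes transcript length into account, at 32 h and on day 16. The 3 tables were normalized separately and no test crosses them. A difference is a log2 difference of value + 1 with its standard error, and a gene is called when the adjusted p of limma, a linear model with shared variance, is below 0.05 over all genes of that comparison. The 36 h libraries summed to 16847994 to 17134536 normalized counts, and the depth of the TPM libraries is unknown. In the 18 culture libraries, T cell markers were nearly absent (10 genes summing to 0.06 to 1.40 TPM at 32 h), as were endothelial markers (6 genes, 0.07 to 1.05 TPM). The 18 myeloid markers summed to 15.1 to 28.3 TPM at 32 h, lowest in the control libraries and highest with BAY-876 and TNF, and 14 of the 18 stayed under 1 TPM in all libraries of each group. Tumour cell markers summed to 1853 to 1919 TPM in control, 1618 to 1627 with BAY-876, 1509 to 1585 with TNF and 1268 to 1342 with both. The 8 fibroblast markers summed to 847 to 869, 838 to 850.4, 362 to 425 and 304 to 347 TPM in the same order, and at 36 h to 16812 to 17864 normalized counts with vehicle and 21541 to 23193 with BAY-876. The part of these shifts in the results was not tested. None of 10 housekeeping genes was at 0 in any library. In these bulk libraries fewer cells of a type and less RNA per cell cannot be told apart. Whether counting used strand is not stated in the labels, and 7 of the 10 genes overlap a noncoding gene on the other strand, whose reads could not be told apart without strand.

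At 32 h in culture the genes divided by agent. Pvr rose with BAY-876 and rose with TNF, Lgals9 and Cd276 fell with each, and Vcam1 and Cd47 fell with BAY-876 and rose with TNF. Nectin2 fell with BAY-876 and was not called with TNF. Icam1 was above 1 TPM only in the libraries with TNF alone. At 36 h BAY-876 also raised Pvr and lowered Vcam1 and Nt5e, while Lgals9, Cd276, Cd47 and Nectin2 were not called there, with differences of 0.02, 0.10, 0.11 and 0.18. Cd274 was not called in any culture comparison, and Pdcd1lg2 was listed at 0 in all 18 culture libraries.

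Of the 9 genes tested at 32 h, 1 was higher and 6 lower with BAY-876 against control, where 11.5% of all 12780 genes tested were higher and 25.8% lower. With TNF against control, 4 were higher and 2 lower, beside 19.4% and 26.1% of all genes. In cells given BAY-876, TNF raised 4 and lowered 2, beside 19.3% and 24.8%. In cells given TNF, BAY-876 raised 1 and lowered 6, beside 10.4% and 23.6%. Both agents against control gave 4 higher and 3 lower, beside 20.9% and 37.9%. At 36 h, 1 of 8 genes tested was higher and 2 were lower with BAY-876, beside 7.34% and 7.10% of 12937 genes. Single libraries moved these 36 h counts: without vehicle replicate 1 or 2 only 1 of the 3 genes was called, and without vehicle replicate 3 the calls over all genes fell from 1868 to 648. Libraries that do not overlap between groups were common among all genes too. They made up 36.7% of genes at 36 h, 50.9% for BAY-876 and 55.9% for TNF against control, 52.6% and 45.0% for the combination against BAY-876 and against TNF, and 63.0% for the combination against control. Icam1 passed the filter on low values (1 TPM in at least 3 libraries) only through the TNF group, so its place in these 32 h counts was set in part by the filter. It is 1 of the 4 higher genes wherever a group with TNF is set against one without, and 1 of the 6 lower genes for the combination against TNF. The median log2 difference of the tested genes was -0.40 with BAY-876 and 0.21 with TNF, beside -0.09 and -0.06 over all genes. These comparisons share libraries with each other, the control group first of all, so their values stand side by side and are not independent of one another.

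**Figure D1:**
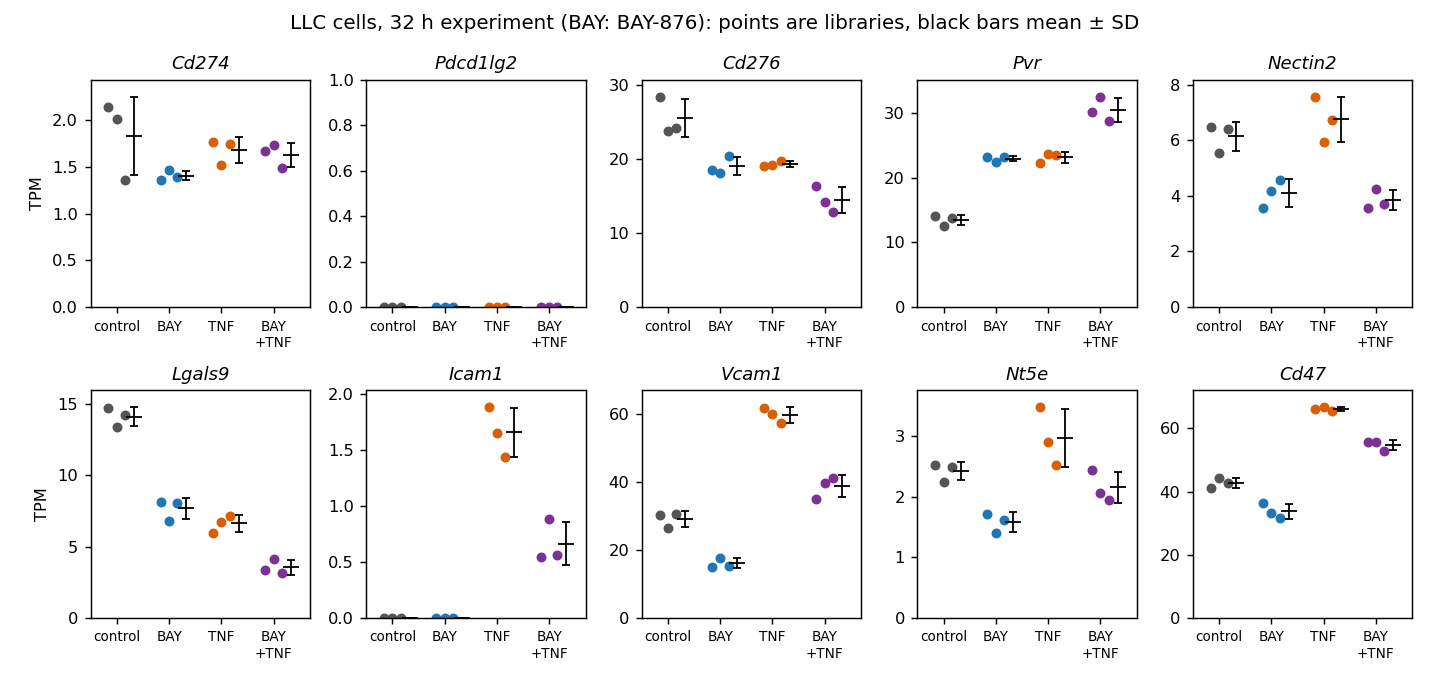
Levels of the 10 genes at 32 h, in TPM, for each library of the control, BAY-876, TNF and combined groups (points, 3 libraries each; black bars are mean ± SD). Pvr climbs from control to the combination, Lgals9 and Cd276 descend, and Vcam1 and Cd47 are highest with TNF alone.

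The PD-1 ligands lie next to each other on chromosome 19 of GRCm38. Cd274, which encodes PD-L1, is at chr19:29367455-29388095 on the plus strand, and Pdcd1lg2, which encodes PD-L2, follows 22.8 kb later at chr19:29410919-29471161. At 32 h Cd274 measured 2.14, 2.01 and 1.36 TPM in control, 1.36, 1.46 and 1.40 with BAY-876, 1.76, 1.52 and 1.75 with TNF, and 1.67, 1.73 and 1.49 with the combination. The lowest control library lay at the level of the BAY-876 libraries, and each treated group overlapped control. The difference from control was -0.23 ± 0.13 (SE) with BAY-876 (limma, adjusted p = 0.207, 95% interval -0.52 to 0.07) and -0.07 ± 0.13 with TNF (adjusted p = 0.687, interval -0.36 to 0.22). At 36 h Cd274 measured 64.1, 54.7 and 69.6 normalized counts with BAY-876 and 77.7, 78.9 and 94.7 with vehicle. All 3 BAY-876 libraries were below all 3 vehicle libraries, a separation that 36.7% of all genes tested also showed. The difference was -0.41 ± 0.18 and was not called (adjusted p = 0.151).

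Nearest profiles over the 12 libraries at 32 h were sought among genes averaging at least 5 TPM, predicted genes left out. Cd274 varied little, so by this measure its nearest genes had to be ones that also moved little. Wdr33, Csnk1d and Ube2d2a differed from it by a root mean square of 0.07, 0.07 and 0.08 on the log2 scale, where Cd274 itself varied by 0.13 around its mean.

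Cd276 encodes B7-H3, a B7-family molecule on many tumours, and lies at chr9:58524298-58555437 on the minus strand. Its libraries measured 28.4, 23.8 and 24.2 TPM in control, 18.5, 18.1 and 20.4 with BAY-876, and 19.1, 19.1 and 19.7 with TNF. With both agents they measured 16.4, 14.1 and 12.8 TPM. Every treated library was below every control library, and the combination was below both single treatments. The fall was 0.40 ± 0.09 on the log2 scale with BAY-876 (adjusted p = 0.00566), 0.38 ± 0.09 with TNF (adjusted p = 0.00573) and 0.78 ± 0.09 with both (adjusted p = 1.94e-05). The response to BAY-876 with TNF differed from that without by -0.00 ± 0.13 (the interaction, interval -0.29 to 0.29, adjusted p = 0.999). At 36 h the direction differed. Cd276 measured 855.0, 784 and 805 normalized counts with BAY-876 against 770.5, 780.2 and 733 with vehicle, without overlap, and the difference of 0.10 ± 0.07 was not called (adjusted p = 0.393, interval -0.06 to 0.26).

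The ligands of TIGIT and CD226 are neighbours on the minus strand of chromosome 7. Pvr, which encodes CD155, is at chr7:19903578-19921160, and Nectin2, also known as CD112, is at chr7:19716644-19750483, 153 kb away. They moved apart under BAY-876 at 32 h. Pvr measured 14.1, 12.6 and 13.8 TPM in control, 23.3, 22.5 and 23.2 with BAY-876, 22.3, 23.7 and 23.6 with TNF, and 30.2, 32.6 and 28.8 with both. Each single treatment was above every control library, their libraries overlapped each other, and the combination was above all others. Pvr rose by 0.73 ± 0.06 with BAY-876 (adjusted p = 9.05e-06), by 0.74 ± 0.06 with TNF (adjusted p = 2.49e-06) and by 1.12 ± 0.06 with both (adjusted p = 3.91e-08), the last a 2.17-fold difference on the TPM + 1 scale. The response to BAY-876 was 0.38 ± 0.06 in the presence of TNF, and the interaction of -0.35 ± 0.09 had an interval of -0.54 to -0.15 but an adjusted p of 0.0851 over all genes. With quantile normalization it was called, at -0.41 and an adjusted p of 0.0423.

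Pvr was also called at 36 h. It measured 1251, 1349 and 1309.9 normalized counts with BAY-876 and 1014, 1026 and 1088 with vehicle, again without overlap, a rise of 0.32 ± 0.06 (adjusted p = 0.0142). Without vehicle replicate 1 or 2 the rise was 0.30 or 0.31 and its adjusted p was 0.0624 or 0.0625.

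Nectin2 measured 6.47, 5.55 and 6.40 TPM in control and 3.58, 4.17 and 4.56 with BAY-876. With TNF it measured 7.58, 5.95 and 6.73 TPM, and with both agents 3.57, 4.26 and 3.71. The BAY-876 groups, with or without TNF, lay below all libraries that had no inhibitor, and TNF libraries overlapped control. Nectin2 fell by 0.49 ± 0.11 with BAY-876 (adjusted p = 0.00602) and by 0.68 ± 0.11 with BAY-876 in TNF-treated cells (adjusted p = 0.00093). TNF alone differed from control by 0.12 ± 0.11 (adjusted p = 0.439, interval -0.13 to 0.37). The combination fell by 0.56 ± 0.11 from control (adjusted p = 0.00122), a call lost with quantile normalization, where the difference was -0.24 and the adjusted p 0.113. At 36 h the libraries overlapped, with 105, 86.5 and 88.2 normalized counts with BAY-876 and 93.3, 79.4 and 73.8 with vehicle (0.18 ± 0.17, adjusted p = 0.504).

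Lgals9 encodes galectin-9, a secreted lectin that binds TIM-3, and lies at chr11:78962974-78984946 on the minus strand. It had the lowest ratio to control of the 9 genes when both agents were given. Its libraries measured 14.7, 13.4 and 14.2 TPM in control, 8.15, 6.82 and 8.07 with BAY-876, 5.98, 6.73 and 7.17 with TNF, and 3.38, 4.13 and 3.11 with both. Control libraries were highest and combination libraries lowest, and the single treatments overlapped each other. The fall was 0.80 ± 0.11 with BAY-876 (adjusted p = 0.000164), 0.99 ± 0.11 with TNF (adjusted p = 1.57e-05) and 1.74 ± 0.11 with both (adjusted p = 7.41e-08), which is 3.34-fold on the TPM + 1 scale. The interaction of the agents was 0.05 ± 0.15 on the log2 scale (interval -0.28 to 0.38, adjusted p = 0.912). At 36 h the gene measured 146, 129.9 and 157 normalized counts with BAY-876 and 122, 149 and 157 with vehicle, with full overlap (0.02 ± 0.15, interval -0.31 to 0.35).

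**Figure D2:**
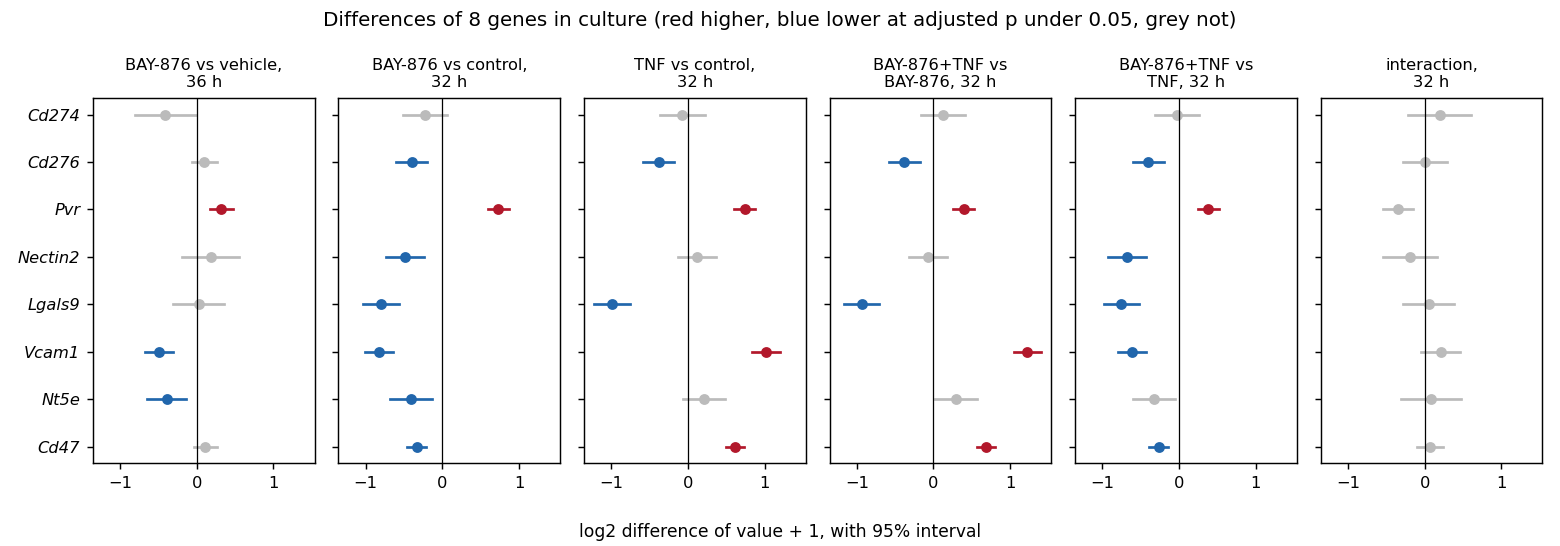
Log2 differences with 95% intervals of 8 genes in culture, without Icam1 and Pdcd1lg2, in each comparison (points; red higher and blue lower at an adjusted p below 0.05, grey not called). Pvr lies to the right of 0 with BAY-876 and with TNF, Lgals9 and Cd276 to the left with both at 32 h, and Vcam1 and Cd47 change side between the agents.

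Both adhesion ligands were higher with TNF. Vcam1 lies at chr3:116109949-116129688 on the minus strand and encodes the ligand of the integrin VLA-4. Its libraries measured 30.2, 26.4 and 30.4 TPM in control, 15.1, 17.6 and 15.2 with BAY-876, 61.8, 59.8 and 57.3 with TNF, and 35.0, 39.7 and 41.2 with both. The 4 groups did not overlap, in the order BAY-876, control, combination, TNF. Vcam1 fell by 0.82 ± 0.08 with BAY-876 (adjusted p = 2.47e-05) and rose by 1.02 ± 0.08 with TNF (adjusted p = 1.61e-06), a 2.02-fold rise. In cells given BAY-876, TNF raised it by 1.22 ± 0.08 (adjusted p = 3.63e-07), and in cells given TNF, BAY-876 lowered it by 0.62 ± 0.08 (adjusted p = 0.000208). The interaction was 0.21 ± 0.12 (interval -0.05 to 0.46, adjusted p = 0.454). At 36 h Vcam1 measured 595, 663 and 666 normalized counts with BAY-876 against 909, 948 and 854 with vehicle, without overlap, and fell by 0.49 ± 0.08 (adjusted p = 0.00564).

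Icam1 encodes the ligand of the integrin LFA-1 and lies at chr9:21015985-21028817 on the plus strand. It was listed at 0 in the 3 control and the 3 BAY-876 libraries at 32 h. With TNF it measured 1.88, 1.65 and 1.44 TPM, and with BAY-876 and TNF 0.544, 0.882 and 0.564 TPM. The TNF libraries were all above the combination libraries, and these were all above 0. No fold against the groups at 0 is given, and because the gene passed the filter only through its TNF libraries, these values stand as a description with no test. At 36 h Icam1 was at 0 to 3.83 normalized counts and was not tested.

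Among genes averaging at least 5 TPM, the profile of Icam1 over the 12 libraries was nearest to those of Sbno2, Nfkb1 and Pnp. The root mean square differences were 0.17, 0.18 and 0.19, where Icam1 varied by 0.59. Nfkb1, which encodes the p50 subunit of NF-kappaB, averaged 54.8 TPM in control, 50.6 with BAY-876, 118 with TNF and 96.6 with both. For Vcam1 the nearest profiles were those of Zswim4, Irf1 and Rab20 (0.11, 0.17 and 0.17, where Vcam1 varied by 0.67). Irf1, a transcription factor of the interferon response, averaged 15.5 TPM in control, 8.30 with BAY-876, 36.1 with TNF and 25.2 with both, in the same order of groups as Vcam1.

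For 8 of the 10 genes, RefSeq (GRCm38.p6) gave a promoter window of 250 bases before to 50 after the start, with overlapping windows for Cd47. Letters of 4 motifs were searched on both strands, and a further form of the NF-kappaB letters was added later. The windows of Icam1 and Lgals9 are printed because they alone among these 8 genes held a match. Icam1 stood higher and Lgals9 lower with TNF. A match describes letters only. The 250 bases before the start are shown 5′ to 3′ in the direction of the gene, at chr9:21015690-21015939 for Icam1 and chr11:78984925-78985174 for Lgals9, with matched letters in capitals.
Icam1: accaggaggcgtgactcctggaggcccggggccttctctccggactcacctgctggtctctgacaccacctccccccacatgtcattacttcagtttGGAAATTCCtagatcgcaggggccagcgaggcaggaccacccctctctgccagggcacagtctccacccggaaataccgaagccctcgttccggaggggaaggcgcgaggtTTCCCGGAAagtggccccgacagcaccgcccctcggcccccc
Lgals9: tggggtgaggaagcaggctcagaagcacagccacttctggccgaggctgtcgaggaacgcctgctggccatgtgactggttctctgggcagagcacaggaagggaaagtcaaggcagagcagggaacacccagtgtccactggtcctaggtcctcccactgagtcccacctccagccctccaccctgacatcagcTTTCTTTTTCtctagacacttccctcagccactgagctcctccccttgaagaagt

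In Icam1 the capitals mark GGAAATTCC, which begins 153 bases before the start, and TTCCCGGAA, which begins 42 bases before it. The second matches TTCNNNGAA, the letters of a STAT site, found in 8.30% of all 32851 windows. The first matches GGANNTTCC, a 9-letter form of the NF-kappaB site that was added after the other searches had been read and that 4.26% of windows hold. The longer NF-kappaB forms were GGG or GG and then TTCC with 3 or 4 free letters between. They were held by 5.56% and 18.2% of windows and had no match in the windows of these 8 genes. In Lgals9 the capitals mark TTTCTTTTTC, 55 bases before the start, a reverse-strand match of the interferon response letters, GAAA and again GAAA with 2 free letters between, which 3.44% of windows hold. A further match of these letters, TTTCTGTTTC, lies after the start of Lgals9 and outside the printed run.

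Nt5e encodes CD73, the enzyme that turns AMP into adenosine, and lies at chr9:88327197-88372092 on the plus strand. Its libraries measured 2.53, 2.25 and 2.49 TPM in control, 1.72, 1.40 and 1.62 with BAY-876, 3.48, 2.90 and 2.52 with TNF, and 2.44, 2.07 and 1.95 with both. BAY-876 libraries were lowest, and the TNF and combination libraries each overlapped control. The fall with BAY-876 was 0.41 ± 0.12 (adjusted p = 0.0226) and was not called with quantile normalization (adjusted p = 0.0716), nor without control replicate 1 (0.0662), control replicate 3 (0.0614) or BAY-876 replicate 2 (0.0778). TNF differed by 0.21 ± 0.12 from control (adjusted p = 0.199), a rise that quantile normalization called at 0.41 with an adjusted p of 0.0131. In cells given BAY-876 the TNF difference was 0.29 ± 0.12 (adjusted p = 0.0794), called with quantile normalization at 0.48 (adjusted p = 0.00545). In cells given TNF, BAY-876 differed by -0.33 ± 0.12 (adjusted p = 0.0624), which was called without TNF replicate 3 (-0.41, adjusted p = 0.0429) or combination replicate 1 (-0.39, adjusted p = 0.0497).

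At 36 h Nt5e measured 317, 375 and 406 normalized counts with BAY-876 and 449, 484 and 507 with vehicle, without overlap. It fell by 0.39 ± 0.11 (adjusted p = 0.0438). The call was lost without any filter (adjusted p = 0.0527), without any 1 of the vehicle libraries (0.0802, 0.127 and 0.146 for replicates 1 to 3) and without BAY-876 replicate 1 or 2 (0.0618 and 0.0734).

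Cd47 lies at chr16:49800533-49915010 on the plus strand and encodes the ligand of SIRP-alpha on phagocytes. Its libraries measured 41.2, 44.3 and 42.8 TPM in control, 36.4, 33.1 and 31.6 with BAY-876, 66.1, 66.7 and 65.5 with TNF, and 55.6, 55.8 and 52.8 with both. As with Vcam1, the 4 groups did not overlap and followed the order BAY-876, control, combination, TNF. Cd47 fell by 0.34 ± 0.05 with BAY-876 (adjusted p = 0.000627) and rose by 0.62 ± 0.05 with TNF (adjusted p = 3.34e-06). TNF raised it by 0.69 ± 0.05 in BAY-876-treated cells (adjusted p = 1.34e-06), and the interaction was 0.07 ± 0.08 (interval -0.10 to 0.24). At 36 h Cd47 measured 1309.8, 1381 and 1359 normalized counts with BAY-876 and 1316, 1254 and 1182 with vehicle. These libraries overlapped, and the difference of 0.11 ± 0.07 was not called (adjusted p = 0.286).

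**Figure D3:**
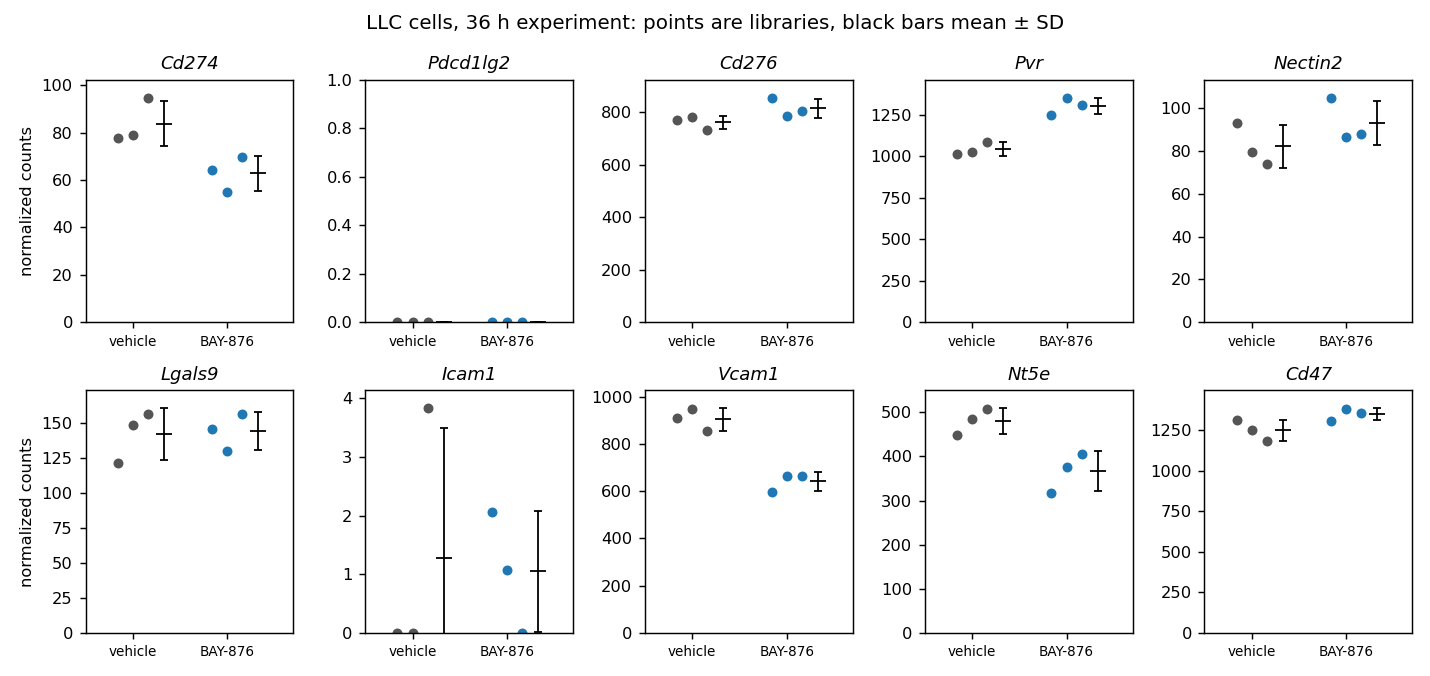
Normalized counts at 36 h for each library of vehicle and BAY-876 (points, 3 libraries each; black bars are mean ± SD). Pvr is higher and Vcam1 and Nt5e lower with BAY-876 without overlap, which 36.7% of all genes tested also showed. Cd274 and Cd276 do not overlap either but were not called, and Lgals9 overlaps fully.

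None of the 9 genes tested was called for an interaction of the agents at 32 h, by limma beside 1.56% of all genes, and 2 of them, Pvr and Icam1, had an unadjusted p below 0.05. Without the filter, through which Icam1 entered only by its TNF libraries, 1 gene was called, Icam1, with an adjusted p of 0.0346. Icam1 was listed at 0 in all control and BAY-876 libraries. Its interaction (-0.68) therefore only repeats the difference of the combination from TNF (-0.68) and cannot show that the responses differ. A p above the threshold does not show that the responses were equal, and the intervals above give the sizes that remain possible.

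The authors' deposited tables of the 32 h comparisons give log2 fold changes from DESeq2. For TNF against control, the authors' deposited table lists 1.11 for Vcam1, 0.70 for Cd47, 0.86 for Pvr, -1.02 for Lgals9 and -0.33 for Cd276. For BAY-876 against control, the authors' deposited table gives Nectin2 an adjusted p of 0.0594 and Nt5e an adjusted p of 0.0727, both on the other side of the threshold from the limma fit.

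Other genes of the same pathways moved in culture as follows. The counts here are for 32 h unless 36 h is named. Of 17 tested genes of NF-kappaB feedback and targets, 17 were higher with TNF, where 19.4% of all genes were, and 17 were higher with TNF in BAY-876-treated cells, where 19.3% were. Their medians were 1.89 and 1.76, beside -0.06 and -0.05 over all genes. Nfkbia, the inhibitor that NF-kappaB induces, averaged 43.7 ± 5.41 TPM (SD, n = 3) in control and 335 ± 11.96 with TNF, and the chemokine gene Ccl2 averaged 218 ± 6.82 and 1407 ± 21.1. Of 15 tested genes of the axis from interferon gamma to PD-L1, BAY-876 lowered 8 and raised 1, where 25.8% of all genes were lower and 11.5% higher, and in TNF-treated cells it lowered 8 and raised 0, beside 23.6% and 10.4%. At 36 h BAY-876 lowered 0 of 15 and raised 1, beside 7.10% and 7.34%. Ifngr1, a subunit of the interferon gamma receptor, fell from 27.5 ± 1.32 to 15.5 ± 0.380 TPM with BAY-876 (-0.79 ± 0.08, adjusted p = 3.64e-05), and Jak1, its kinase, fell from 80.7 ± 1.13 to 58.8 ± 0.689 (adjusted p = 1.17e-05). TNF raised 5 of these 15 and lowered 3, beside 19.4% and 26.1%, among the lower ones Socs3, a feedback inhibitor of cytokine signalling, which fell from 30.0 ± 1.22 to 12.2 ± 1.69 TPM (adjusted p = 1.33e-06).

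Of 10 tested genes for other checkpoint and costimulatory ligands, BAY-876 raised 2 and lowered 4, beside 11.5% and 25.8% of all genes, and TNF raised 2 and lowered 2, beside 19.4% and 26.1%. At 36 h BAY-876 raised 1 and lowered 1 of 10, beside 7.34% and 7.10% of all genes. Vsir, which encodes the checkpoint molecule VISTA, averaged 12.2 ± 3.18 TPM in control, 3.87 ± 0.442 with BAY-876, 2.94 ± 0.932 with TNF and 1.01 ± 0.221 with both, and was called lower in each comparison with control (adjusted p = 0.000212, 2.14e-05 and 3.11e-07). Lgals3, which encodes galectin-3, rose from 147 ± 3.40 to 351 ± 8.21 TPM with BAY-876 (adjusted p = 6.48e-07) and rose at 36 h too, from 1266 ± 95.8 to 2561 ± 391 normalized counts (adjusted p = 0.00102). H2-T23, the gene of Qa-1, which NKG2A binds, fell with BAY-876 from 5.69 ± 0.352 to 2.25 ± 0.228 TPM and rose with TNF to 10.5 ± 0.213 (adjusted p = 6.40e-05 and 0.000259). Icosl, the ligand of ICOS, rose with TNF from 3.74 ± 0.570 to 6.89 ± 0.537 TPM (adjusted p = 0.000409). Of 10 tested genes for other adhesion molecules, BAY-876 raised 0 and lowered 2. TNF raised 3 and lowered 3, and both counts stand beside the 32 h shares above. At 36 h BAY-876 raised 2 and lowered 1 of 9, beside 7.34% and 7.10%. Ncam1, a neural adhesion molecule, fell with TNF from 18.7 ± 0.413 to 7.48 ± 0.504 TPM (adjusted p = 2.18e-07). Of the receptors of these ligands 5 of 21 were tested in culture, and Adora2b, an adenosine receptor, rose with TNF from 2.97 ± 0.310 to 10.7 ± 0.270 TPM (adjusted p = 2.48e-07).

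On day 16 the sort itself was checked first. Of the 10 T cell markers all were detected in OT1 libraries, where they summed to 5597 to 9035 TPM, and they summed to 5.40 to 17.1 TPM in tumour cell libraries. Tumour cell markers summed to 1966 to 2188 TPM in tumour cell libraries and to 63.6 to 247 TPM in OT1 libraries. The OT1 libraries also held all 18 myeloid markers, summing to 2117 to 28738 TPM, against 186 to 345 TPM in tumour cell libraries, and none of the 18 was at 0 throughout in either group. The mean over the 18 markers was 118, 556, 249.6, 347 and 1597 TPM in OT1 replicates 1 to 5. Replicate 5, the highest, also had the lowest T cell marker sum. OT1 libraries were also higher in the 6 endothelial markers (42.3 to 60.1 TPM against 0.991 to 8.68), which include Pecam1, and in the 8 fibroblast markers (1002 to 1432 against 335 to 852), which include the T cell marker Thy1. The 5 erythroid markers ranged from 65.0 to 2781 TPM in OT1 libraries and from 10.1 to 899 in tumour cells, and the 5 natural killer markers from 43.0 to 60.4 TPM and from 11.2 to 13.5. The part of these transcripts in the results below was not tested beyond the values given.

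On day 16 all of the 10 genes but Vcam1 and Nt5e had libraries that did not overlap between the populations, as did most genes. OT1 libraries were higher for 5 and lower for 4 of the 10, where 30.1% of 13511 genes were higher and 44.4% lower, and 63.1% had libraries that did not overlap. Pdcd1lg2 and Icam1 passed the filter (1 TPM in at least 5 libraries) through the OT1 libraries and so had to be higher there. Higher in OT1 libraries were Cd274, Pdcd1lg2, Lgals9, Icam1 and Cd47, and higher in tumour cells were Cd276, Pvr, Nectin2 and Nt5e. Vcam1 was not called.

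Cd274 measured 24.7, 52.1, 36.0, 39.9 and 74.5 TPM in OT1 replicates 1 to 5 and 15.7, 20.4, 21.0, 17.0 and 19.4 in tumour cell replicates 1 to 5. All OT1 libraries were above all tumour cell libraries, and the most myeloid-rich library, replicate 5, was the highest. The difference was 1.15 ± 0.24 (adjusted p = 0.000923), and without OT1 replicates 2, 4 and 5, the 3 with the most myeloid transcripts, it was 0.65 (adjusted p = 0.00845). These are also the 3 OT1 libraries with the highest Cd274, so this choice lowers the difference by construction. Pdcd1lg2 measured 21.0, 25.9, 28.0, 21.2 and 32.5 TPM in OT1 libraries and 0.197, 0.0628, 0.0566, 0.162 and 0.133 TPM in tumour cells. All OT1 libraries were above all tumour cell libraries, with the highest value again in replicate 5, and since the gene passed the filter only through its OT1 libraries, no test is given. Their receptor gene Pdcd1 averaged 415.6 ± 129.8 TPM (SD, n = 5) in OT1 libraries and 0.325 ± 0.147 in tumour cells.

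Cd276 had the largest difference of the 10 in favour of tumour cells. It measured 3.02, 1.91, 1.52, 2.83 and 1.94 TPM in OT1 libraries and 16.2, 24.2, 22.8, 17.7 and 32.5 in tumour cells, a difference of -2.85 ± 0.20 (adjusted p = 1.46e-07) without overlap. Pvr measured 14.2, 18.4, 14.6, 12.8 and 21.0 TPM in OT1 libraries and 39.3, 34.4, 38.8, 26.3 and 41.5 in tumour cells (-1.11 ± 0.16, adjusted p = 4.94e-05). Nectin2 measured 1.05, 1.82, 1.62, 2.50 and 4.46 TPM in OT1 libraries and 5.18, 8.87, 7.71, 8.47 and 10.3 in tumour cells (-1.52 ± 0.25, adjusted p = 0.000175). Neither overlapped between the populations, and both, like Cd274, were highest among OT1 libraries in replicate 5. Among their receptors, Tigit averaged 292 ± 89.4 TPM in OT1 libraries and 16.4 ± 4.32 in tumour cells, and Cd226 averaged 35.8 ± 8.17 and 0.0319 ± 0.0437.

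Lgals9 measured 72.4, 97.6, 92.4, 83.5 and 95.2 TPM in OT1 libraries and 33.7, 50.5, 50.8, 42.2 and 43.8 in tumour cells, without overlap (0.99 ± 0.12, adjusted p = 1.85e-05). Havcr2, which encodes its receptor TIM-3, averaged 95.2 ± 19.4 TPM in OT1 libraries and 0.470 ± 0.0377 in tumour cells.

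**Figure D4:**
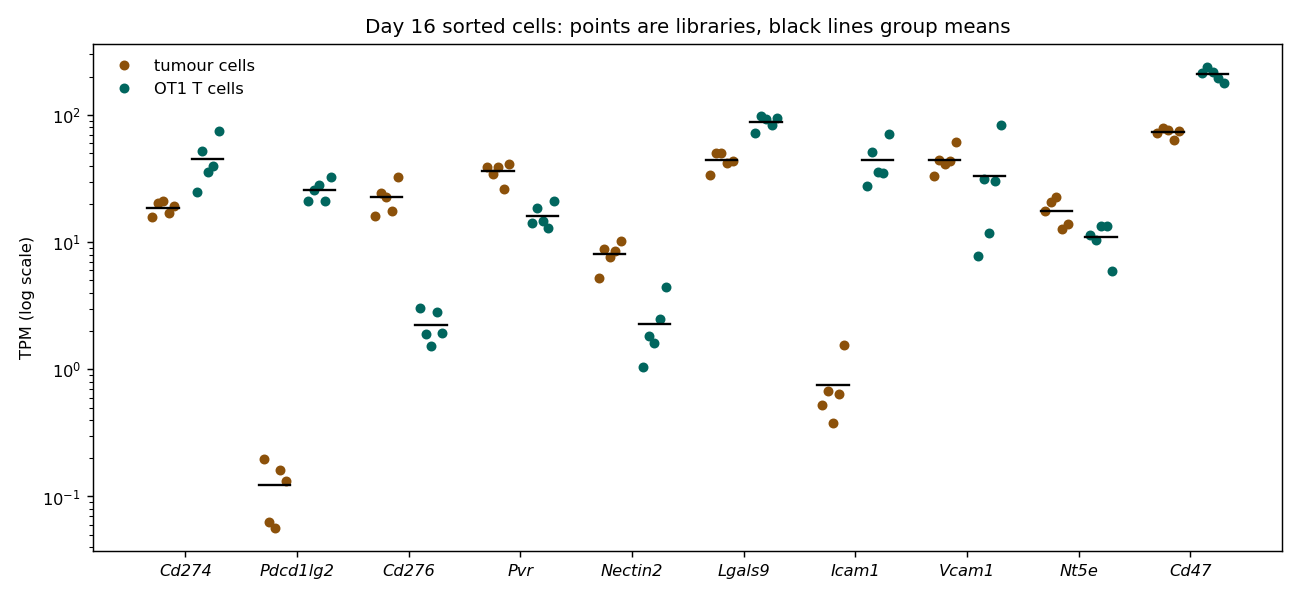
Levels of the 10 genes on day 16, in TPM on a log10 axis, in each OT1 and tumour cell library (points, 5 libraries each; the line is the mean). Pdcd1lg2 and Icam1 are the most separated, with tumour cells near or below 1 TPM, and Vcam1 overlaps, with OT1 libraries from 7.83 to 82.9 TPM.

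Among the adhesion ligands, Icam1 measured 27.7, 51.3, 35.5, 35.0 and 71.1 TPM in OT1 libraries and 0.520, 0.678, 0.380, 0.638 and 1.54 in tumour cells. The lowest OT1 library was far above the highest tumour cell library, and since the gene passed the filter only through the OT1 group, no test is given. Vcam1 measured 7.83, 31.6, 11.9, 30.5 and 82.9 TPM in OT1 libraries and 33.4, 44.0, 41.2, 43.4 and 60.9 in tumour cells. OT1 replicates 2, 4 and 5, with the most myeloid transcripts, had the highest Vcam1, and replicate 5 was above every tumour cell library. The difference of -0.84 ± 0.50 was not called (adjusted p = 0.146). Without OT1 replicate 5 it was -1.28 (adjusted p = 0.00702), and without replicates 2, 4 and 5, which are also the 3 OT1 libraries with the highest Vcam1, it was -2.07, a value that this choice lowers by construction. The integrin genes on the other side of these contacts averaged 263 ± 33.5 TPM for Itgal and 60.9 ± 6.91 TPM for Itga4 in OT1 libraries, and 0.694 ± 0.299 and 0.158 ± 0.0515 TPM in tumour cells.

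**Figure D5:**
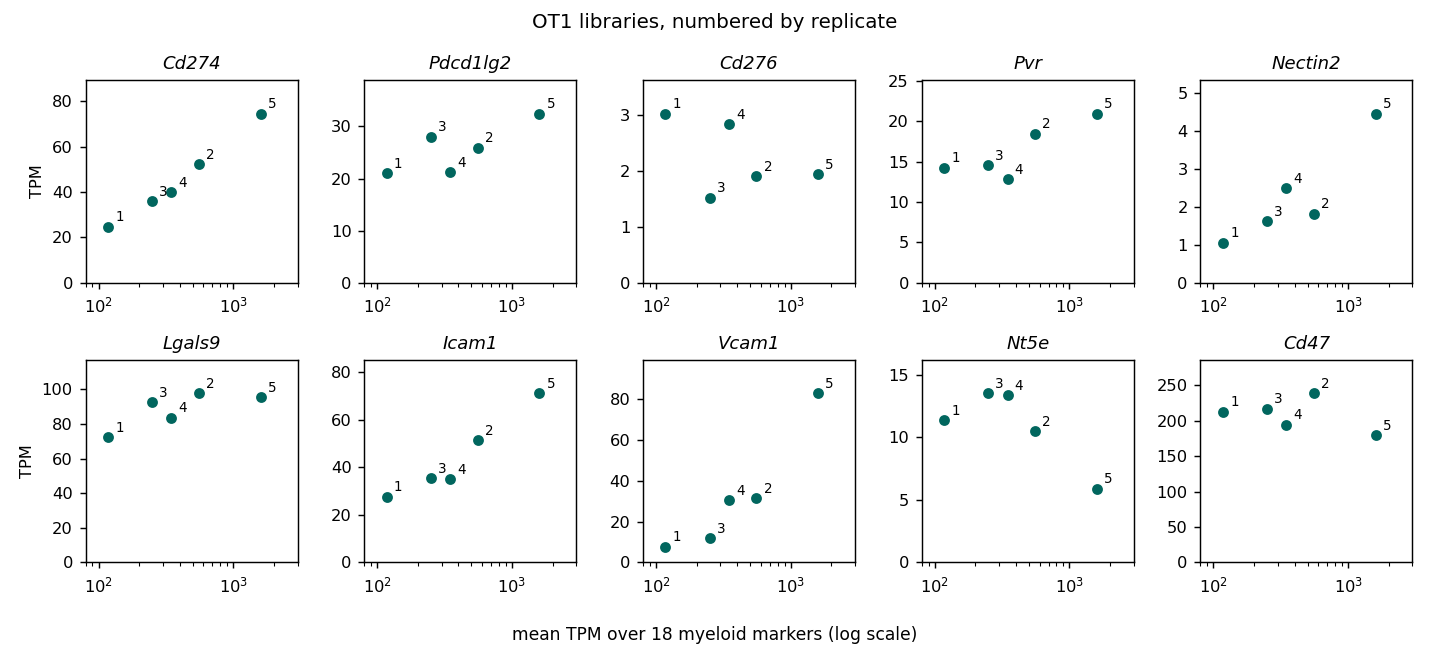
TPM of the 10 genes in the 5 OT1 libraries (linear axis) against the mean TPM of 18 myeloid markers (log10 axis), each point a library with its replicate number. Cd274, Pdcd1lg2, Pvr, Nectin2, Icam1 and Vcam1 are highest and Nt5e and Cd47 lowest in replicate 5, whose myeloid mean of 1597 TPM is the highest.

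Nt5e measured 11.4, 10.5, 13.5, 13.4 and 5.89 TPM in OT1 libraries and 17.7, 20.6, 22.7, 12.7 and 13.8 in tumour cells, with overlap. It was called lower in OT1 libraries (-0.65 ± 0.22, adjusted p = 0.0198). The call was lost without tumour cell replicate 3 (-0.56, adjusted p = 0.0527) and without OT1 replicates 2, 4 and 5 (-0.44, adjusted p = 0.114). Entpd1, which encodes CD39, the enzyme before CD73 in adenosine production, averaged 60.5 ± 34.4 TPM in OT1 libraries and 0.763 ± 0.202 in tumour cells, and Adora2a, an adenosine receptor, 94.0 ± 11.5 and 0.0681 ± 0.0507. Cd47 measured 213, 239, 217, 194 and 179.8 TPM in OT1 libraries and 72.4, 79.7, 76.3, 64.2 and 75.5 in tumour cells, without overlap and with the lowest OT1 value in replicate 5 (1.49 ± 0.09, adjusted p = 5.10e-08). Its receptor gene Sirpa, a myeloid gene, ranged from 17.9 to 395 TPM over the OT1 libraries.

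Without OT1 replicates 2, 4 and 5, and over the genes of the full fit, 9 of the 10 genes were called, 5 higher and 4 lower in OT1 libraries, where 27.4% of all genes were higher and 42.2% lower. Of these 9, 8 were also called with all libraries, the other is Vcam1, and Nt5e lost its call. The 5 higher genes include Pdcd1lg2 and Icam1, which passed the filter through OT1 libraries and had to be higher. Vcam1, 1 of the 4 lower, was called only when OT1 libraries with its highest values were left out. Of 21 receptor genes of these ligands, 18 were higher and 2 lower in OT1 libraries, beside 30.1% and 44.4% of all genes. Those under 1 TPM in all tumour cell libraries, such as Pdcd1 and Cd226, passed the filter only through OT1 libraries. They had to be higher there, so this count was set in part by the filter. Of 17 tested genes for other checkpoint and costimulatory ligands, 11 were higher and 3 lower, beside the same shares. Here too genes such as Cd80 passed the filter only through OT1 libraries, so this count was set in part by the filter. Cd80, which binds CD28 and CTLA-4, averaged 44.2 ± 4.62 TPM in OT1 libraries and 0.159 ± 0.104 in tumour cells.

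Set beside each other, with no test because the tables were normalized separately and the day 16 cells carry ovalbumin and NGFR, several genes stood at other levels in tumour cells of the mouse than in cultured control cells. Cd274 averaged 1.83 ± 0.417 TPM (SD, n = 3) in culture and 18.7 ± 2.26 TPM (n = 5) in tumour cells. Nt5e averaged 2.42 ± 0.152 and 17.5 ± 4.26 TPM, Lgals9 14.1 ± 0.662 and 44.2 ± 7.0, and Pvr 13.5 ± 0.768 and 36.1 ± 6.02. Cd276, at 25.5 ± 2.54 and 22.7 ± 6.43 TPM, and Nectin2, at 6.14 ± 0.511 and 8.10 ± 1.88, were closer. Irf1, 1 of the 17 genes listed for the axis from interferon gamma to PD-L1, averaged 15.5 ± 1.56 and 168 ± 17.9 TPM. It was named after its values were seen, the rest of the list is not given here, and a link to Cd274 was not tested. The sorted tumour cell libraries also held more myeloid markers, summing to 186 to 345 TPM beside 15.1 to 17.1 TPM in cultured control. T cell markers summed to 5.40 to 17.1 TPM beside 0.28 to 0.71 TPM. The part of these transcripts in the values above was not tested. Cd47 had the highest mean TPM of the 10 genes in each of the 32 h groups and in both day 16 groups.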

How the data were processed

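Trizol RNA went into SMARTER mRNA libraries, per the labels. STAR 2.6.1d, Salmon 0.14.1 (36 h) or 0.13.1, DESeq2 1.34.0 and mm10 are named in the submitters' processing notes. At 36 h the deposited values are a signal of normalized counts, which the authors obtained from DESeq2 per the file name, and they are not fit for a count test. TPM of the 32 h and day 16 libraries were deposited at a sum of 1000000 each and carry no depth. The authors' deposited comparison tables hold mean counts, log2 fold changes with standard errors, p-values and a test score. Of these, mean counts, log2 values, standard errors and adjusted p are quoted. Among the 32 h values, 24 columns of other times had no matching sample and stayed out. The treatment label of 2 libraries of BAY-876 with TNF gives another compound number than their titles, by which they were grouped.

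Values were taken to log2(value + 1), which understates changes of low genes. Genes with 10 normalized counts or 1 TPM in at least 3 libraries (5 on day 16) were kept and tested with limma 3.58.1 in R 4.3.3 with a mean-variance trend, the 12 libraries at 32 h in a single fit, with Benjamini-Hochberg adjustment over all genes at 0.05. The interaction is the BAY-876 response with TNF minus that without. The method was run on simulated data, with changes placed only in genes of higher level. This does not show how it handles low genes such as Cd274, Nt5e and Icam1 at 32 h. The members and gene lists were chosen with earlier results of these data known. Beside the members, the text names genes of fixed pathway lists, up to 3 per list and comparison with the smallest p among called genes whose groups do not overlap, and the 3 nearest profiles of Cd274, Icam1 and Vcam1; receptor genes and Irf1 on day 16 were named for their pairing with members, after their values were seen. Replicate libraries were no copies of each other. Same-numbered libraries correlated at -0.07 to -0.02 (36 h), -0.19 to 0.12 (32 h) and 0.05 to 0.11 (day 16) in their deviations. Numbers were not taken as pairs in the main fit. On day 16 the erythroid marker sum was highest in replicate 4 in OT1 libraries (2781 TPM) and in tumour cells (899 TPM). It was lowest in replicate 2 in both (65.0 and 10.1 TPM). The myeloid sum was highest in replicate 5 in both, and lowest in OT1 replicate 1 and tumour cell replicate 2. Whether same-numbered libraries share a tumour is not said in the labels, and a replicate block was run as an alternative. Alternatives were another pseudocount (10 counts or 0.1 TPM), no filter, a mean filter (100 counts or 5 TPM), quantile normalization, a replicate block, each library left out, only the libraries compared, and, added after seeing the data, OT1 cells without replicates 2, 4 and 5. Coordinates of genes are those of GENCODE M21 (GRCm38).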

Additional observations from a re-analysis of the deposited data

Results flagged for a closer look

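In the tumour cell libraries of day 16, replicate 5 held 1.54 TPM of Icam1 and stood apart from the other 4, with a gap of 0.743 of the whole range against a limit of 0.71 for 5 samples. That library also had the highest myeloid marker sum of the tumour cell libraries, 345 TPM, and the highest T cell marker sum, 17.1 TPM, and their part in the value was not tested. Across 20 groups of 5 that were examined, chance alone marks about 1 in 20.

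The BAY-876 response had opposite signs in the 2 culture experiments for 3 genes, in every treated library against the mean of its controls. Cd276 differed by 0.10 at 36 h and by -0.40 at 32 h on the log2 scale. Nectin2 differed by 0.18 and -0.49, and Cd47 by 0.11 and -0.34. None of the 3 was called at 36 h, and the difference between the experiments was not tested. The experiments differ in the exposure to the inhibitor and in the scale of the deposited table.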

How the results depend on the processing

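Over 72 results of single members, 1173 alternatives were run: 1147 left a result on its side of the threshold, 17 lost and 9 gained a call. No result that was called changed sign. Of results that were not called, 8 changed sign in 21 alternatives, among them Cd274 with TNF and with both agents against control, and Nectin2 with TNF in BAY-876-treated cells. The calls most often lost were those of Nt5e. Leaving out 1 library gave 1 to 3 called members at 36 h and 648 to 2394 called genes, against 1868 with all libraries. The lowest count of 648 was without vehicle replicate 3, and vehicle replicates 1 and 2 and BAY-876 replicate 3 left 765, 714 and 1072. For the interaction, leaving out 1 library gave 110 to 250 called genes, against 199. Without a filter 1 member was called, Icam1, whose value cannot show differing responses, and with quantile normalization 1, Pvr. The cause was not tested. Icam1 could not be fitted at 32 h without a TNF library, since it then missed the filter.

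Quantile normalization moved the median of all genes for both agents against control from -0.13 to 0.02. It moved the split of called genes with BAY-876 from 1473 higher and 3303 lower to 2238 and 2305, in TNF-treated cells from 1323 and 3018 to 1860 and 2048, and for both agents from 2671 and 4840 to 3676 and 3504.

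In the fit with a replicate block, called members numbered 3 at 36 h, 7 and 6 for BAY-876 and TNF against control, 6 and 7 for the combination against each, 7 against control, 0 for the interaction and 9 on day 16, the same counts as without it. Of the pathway genes, Cd44 at 36 h (adjusted p = 0.0613), F11r for the combination against TNF (0.0541) and Sod2 in the interaction (0.0672) lost their call under the block. In the labels, samples of different groups share only a number. TPM carry no depth, but the authors' deposited comparisons at 32 h hold mean normalized counts and DESeq2 standard errors. For BAY-876 against control, Cd274 averaged 73.2 counts with an SE of 0.28, and Nt5e 97.7 counts with an SE of 0.23. The limma SEs, on the scale of log2(value + 1), were 0.13 and 0.12. For TNF against control, Icam1 averaged 25.2 counts.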

Other observations

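Tigit, the receptor gene that pairs with Pvr and Nectin2, was detected in the cultured LLC cells themselves, at 3.10 to 4.68 TPM in control, 3.46 to 5.16 TPM with BAY-876, 6.38 to 8.17 TPM with TNF and 3.0 to 4.94 TPM with BAY-876 and TNF. At 36 h it measured 56.4 to 70.1 normalized counts. In the same libraries Cd226, Cd96 and Pdcd1 were listed at 0, and the 10 T cell markers summed to at most 1.40 TPM at 32 h. BAY-876 alone differed from control by 0.12 ± 0.18 (SE) on the log2 scale and was not called (limma, adjusted p = 0.641), and TNF alone raised it by 0.73 ± 0.18 (adjusted p = 0.0066). BAY-876 lowered Tigit in TNF-treated cells from 7.32 ± 0.902 to 4.13 ± 1.01 TPM (SD, n = 3; limma, adjusted p = 0.0108), and the interaction of -0.83 ± 0.26 was not called (adjusted p = 0.155). In the sorted tumour cells of day 16 it ranged from 12.6 to 23.5 TPM. The gene was singled out after its values were seen.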
